A study of Drosophila melanogaster with 36 samples.

Results

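A set of 8 genes that fly blood cells use to recognise, bind and engulf microbes and dying cells, or that mark and specify these cells, was followed in Kc167 cells exposed to methyl methanesulfonate (MMS), a DNA-methylating agent. The genes were Sr-CI, NimC1, eater, crq, drpr, Hml, NimB4 and srp. Each was taken where the array annotation gave a probe set this gene alone, with the probe set of highest mean over the 36 arrays chosen for a gene with several. All 8 were found, each with 1 probe set, among 11982 genes measured.

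Kc167 is an established embryonic cell line of Drosophila melanogaster, and every value below comes from this line alone. Cells received fresh medium without MMS (control) or with MMS at 40 µg/mL, and RNA was hybridised to Affymetrix Drosophila Genome 2.0 arrays. Harvests were made at 0, 1, 8, 24 and 72 h for control cells and at all of these times but 0 h with MMS, which gave 9 groups of 4 arrays. The 4 MMS comparisons each used control cells of the same age, while the comparisons of later control cells all shared the control arrays of 0 h.

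Hemocytes are the blood cells of the fly, and most of them are plasmatocytes, the macrophage-like cells that clear microbes and apoptotic corpses. Uptake begins when a surface receptor binds its target, signals through tyrosine kinases and adaptors to the actin cytoskeleton, and closes a phagosome that then matures by fusing with lysosomes. The Nimrod receptors carry repeats related to those of epidermal growth factor, the class C scavenger receptors bind a broad range of microbial ligands, and the CD36 family member croquemort takes up dying cells. Serpent, a GATA transcription factor, is required to make these blood cells at all.

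Values are log2 expression as the authors deposited it, so a difference of 1 is a doubling in brightness. The values were brought to nearly one distribution across arrays, so a change says how a gene stood against the rest, and less RNA per cell cannot be told apart from fewer cells of a type. Array medians lay between 4.47 and 4.66 and arrays of 1 group correlated at 0.9825 to 0.9984 over genes. The 8 arrays of 8 h stood apart. On them the mean difference between the 3′ and 5′ control probe sets of actin, eIF-4a and GAPDH was 1.42 to 1.67, against 0.50 to 0.72 on the other 28 arrays, and the 5′ probe set for 18S ribosomal RNA read 10.56 to 11.33, against 3.44 to 6.65. This property and the age of 8 h cannot be told apart in any comparison of 8 h with another time.

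Hml and the 14 other plasmatocyte markers measured lay above the array medians on every array. Hml ranged from 10.53 to 13.00 over the 36 arrays, and on the 14 other plasmatocyte markers measured, LanA, a laminin chain, ranged from 11.62 to 13.52, hemese (He), a hemocyte surface glycoprotein, from 8.06 to 12.02 and peroxidasin (Pxn), an extracellular matrix enzyme, from 7.18 to 9.68. Markers of other cell types fell on both sides of the array medians. The crystal cell factor lz (3.03 to 3.43), the muscle gene Mlc2 (2.93 to 3.58) and the yolk protein gene Yp1 (3.41 to 4.14) lay below them on every array, while the crystal cell phenoloxidase PPO2 (5.73 to 6.38), the muscle gene Prm (4.75 to 6.57) and the yolk protein gene Yp2 (4.77 to 5.38) lay above. Of the 8 genes themselves, Sr-CI read 3.60 to 4.74 outside control cells at 72 h and was below every array median at 0, 1 and 24 h, in the range of Yp1. NimB4 read 3.82 to 5.18 over all arrays. NimC1, known as the plasmatocyte antigen P1, read 4.73 to 6.35 in the groups of 0 to 24 h, overlapping the ranges of Prm, PPO2 and Yp2. The values came without detection calls, so these levels are not shown to be above background. The changes of Sr-CI and NimB4, and those of NimC1 from its 0 h level, are given on the log2 scale with no fold.

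**Figure D1:**
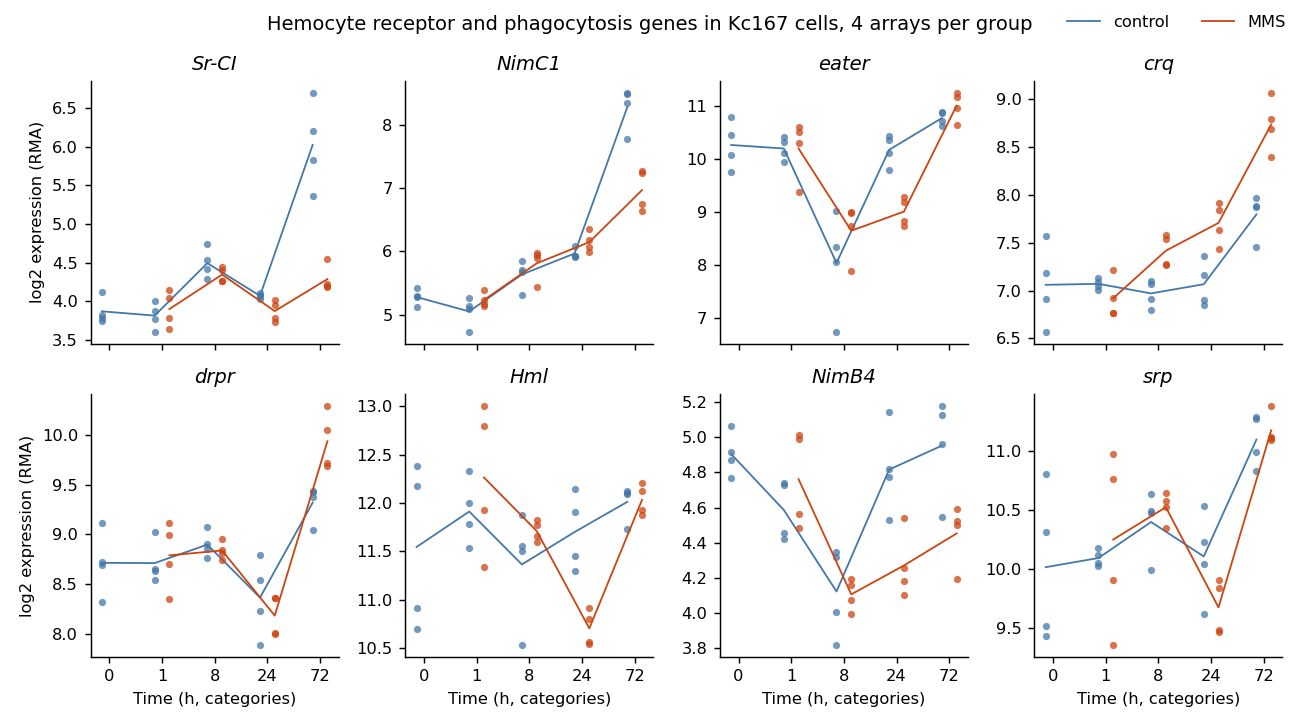
Log2 expression of the 8 genes on each of 36 arrays, 4 points per group, with lines through the group means of control (blue) and MMS-treated (orange) cells. The time axis shows the harvest times as categories, and each gene has its own vertical scale. Sr-CI and NimC1 are highest in control cells at 72 h, crq and drpr are highest with MMS at 72 h, and eater is lowest at 8 h.

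At 1 h of MMS none of the 8 genes differed from control cells at the threshold used. Calls were made at an adjusted p under 0.05 over all 11982 genes (limma with Benjamini-Hochberg adjustment). At that threshold 0 of 8 genes were higher and 0 lower at 1 h, against 0% of all genes in either direction. The smallest adjusted p among the 8 was 0.853, and 0 of the 8 had an unadjusted p under 0.05, against 684 of all genes. The largest change among them was 0.35 ± 0.31 (log2, SE) for Hml, whose 4 MMS arrays (12.79, 13.00, 11.33 and 11.92) spread on both sides of its control arrays (11.53 to 12.33).

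At 8 h, 1 gene was higher (crq), against 8.85% of all genes, and 0 were lower, against 11.5%. Of the 8, 0 were lower at an unadjusted p under 0.05. At 24 h, crq was higher again, as were 10.2% of all genes, and eater, Hml and NimB4 were lower, as were 10% of all genes. At 72 h, crq and drpr were higher, against 17% of all genes, and Sr-CI, NimC1 and NimB4 were lower, against 12.5%. The median change of the 8 genes was 0.15 at 8 h, −0.32 at 24 h and 0.05 at 72 h, beside −0.02, −0.02 and −0.05 for all genes. The arrays of MMS and control did not overlap for 4 of the 8 genes at 24 h, against 24.2% of all genes, and for 4 of 8 at 72 h, against 28.2%.

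**Figure D2:**
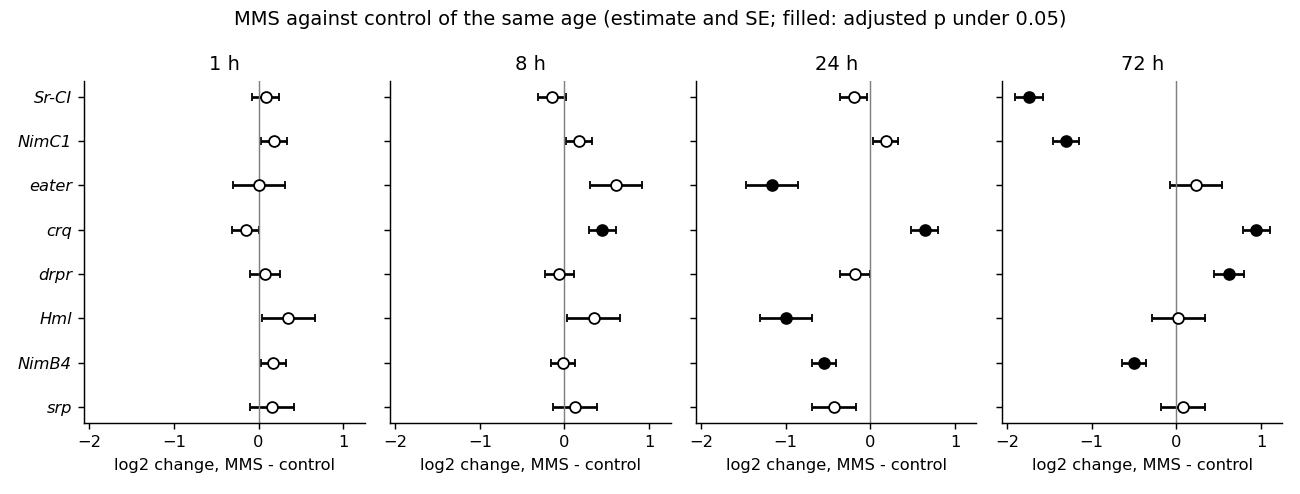
Estimated log2 change of each gene, MMS minus control of the same age, at 1, 8, 24 and 72 h, with bars of 1 standard error. Filled points have an adjusted p under 0.05. No point is filled at 1 h, and at 72 h Sr-CI (−1.74) and NimC1 (−1.31) lie to the left while crq (0.94) and drpr (0.62) lie to the right.

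Croquemort (crq), the CD36-family receptor for apoptotic cells, was the gene raised by MMS at 3 of the 4 times. Control arrays read 6.80, 6.92, 7.10 and 7.06 at 8 h, and MMS arrays read 7.27, 7.27, 7.58 and 7.54. At 24 h the control arrays read 7.16, 7.36, 6.85 and 6.90 and the MMS arrays 7.92, 7.84, 7.63 and 7.44. At 72 h they read 7.88, 7.97, 7.87 and 7.46 in control cells and 8.69, 8.40, 9.07 and 8.80 with MMS. At each of these times every MMS array lay above every control array. The changes were 0.45 ± 0.16 (1.36-fold, adjusted p = 0.0445), 0.64 ± 0.16 (1.56-fold, adjusted p = 0.00268) and 0.94 ± 0.16 (1.92-fold, adjusted p = 1.84e-05). The increase from one time to the next was not itself called, with 0.20 ± 0.23 from 8 to 24 h (adjusted p = 0.707) and 0.30 ± 0.23 from 24 to 72 h (adjusted p = 0.46). The call at 8 h rested on single arrays. It was lost without control replicate 1 (adjusted p = 0.145), 2 (0.0944) or 4 (0.0541), without MMS replicate 3 (0.132) or 4 (0.119), and with arrays centred on their medians (0.0906). The probe set of crq is of a type whose probes can match more than 1 transcript or gene.

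Draper (drpr), the EGF-repeat receptor that is the fly counterpart of CED-1 and binds apoptotic cells and neuronal debris, was higher with MMS at 72 h. Control arrays read 9.43, 9.38, 9.05 and 9.44 there and MMS arrays 10.05, 9.72, 9.69 and 10.30, with no overlap. The change was 0.62 ± 0.17 (1.54-fold, adjusted p = 0.00655). At 24 h it was −0.18 ± 0.17 (adjusted p = 0.568), with control arrays at 8.80, 8.54, 7.89 and 8.23 and MMS arrays at 8.36, 8.36, 8.01 and 7.99, which overlapped. The MMS effect at 72 h exceeded that at 24 h by 0.80 ± 0.25 (adjusted p = 0.024). That difference was no longer called without control 24 h replicate 1 (adjusted p = 0.0784) or 2 (0.0571), MMS 24 h replicate 3 (0.057) or 4 (0.0581), control 72 h replicate 3 (0.0634) or MMS 72 h replicate 4 (0.0748), or when the 8 h arrays were left out of the fit (0.0505).

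NimB4, a secreted Nimrod protein that promotes the clearance of apoptotic cells, moved the opposite way. At 24 h control arrays read 4.78, 4.53, 4.82 and 5.14 and MMS arrays 4.18, 4.26, 4.54 and 4.10. At 72 h control arrays read 4.96, 5.13, 4.54 and 5.18 and MMS arrays 4.50, 4.19, 4.53 and 4.59. In both cases the lowest control array lay just under the highest MMS array, so the groups overlapped. The changes were −0.55 ± 0.15 (adjusted p = 0.00483) and −0.50 ± 0.15 (adjusted p = 0.00835). Of the 3 genes tied to dying cells, crq and drpr were therefore higher with MMS at 72 h and NimB4 was lower.

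Among the receptors for microbes, Sr-CI and NimC1 were lower with MMS at 72 h. Sr-CI encodes a class C scavenger receptor of bacteria. Its control arrays at 72 h read 5.83, 6.70, 6.21 and 5.37 and its MMS arrays 4.22, 4.20, 4.18 and 4.54. The lowest control array stood above the highest MMS array, and the change was −1.74 ± 0.16 (adjusted p = 1.91e-10). Of the MMS arrays, replicate 4 alone was not below every array median, so the size of this change is set against a level not shown to be above background. At 24 h the arrays of the groups did not overlap either (4.07, 4.02, 4.08 and 4.10 in control cells, 3.73, 3.78, 4.02 and 3.95 with MMS), but the change of −0.20 ± 0.16 was not called (adjusted p = 0.484).

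NimC1 encodes the Nimrod receptor known as the plasmatocyte antigen P1. At 72 h its control arrays read 8.33, 8.5, 8.48 and 7.77 and its MMS arrays 7.23, 6.63, 6.74 and 7.27, again without overlap. The change was −1.31 ± 0.15 (2.47-fold lower, adjusted p = 2.14e-08). At 24 h NimC1 had read 6.09, 5.93, 5.93 and 5.91 in control cells and 6.18, 6.08, 5.98 and 6.35 with MMS, a change of 0.18 ± 0.15 (adjusted p = 0.502). The MMS effect differed between 24 and 72 h for both genes, by −1.54 ± 0.23 for Sr-CI (adjusted p = 6.72e-06) and −1.48 ± 0.21 for NimC1 (adjusted p = 3.99e-06).

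Eater, a Nimrod-type receptor that binds bacteria, was lower with MMS at 24 h and not at 72 h. At 24 h control arrays read 10.42, 10.35, 9.79 and 10.10 and MMS arrays 9.18, 9.27, 8.73 and 8.82. The groups were apart and the change was −1.16 ± 0.31 (2.24-fold lower, adjusted p = 0.00464). At 8 h the arrays spread widely, with 6.73, 8.04, 9.02 and 8.33 in control cells and 7.87, 8.98, 8.73 and 8.97 with MMS. The change there, 0.61 ± 0.31, was not called (adjusted p = 0.177), but it was called without control replicate 3 (0.94, adjusted p = 0.0214) or without MMS replicate 1 (0.86, adjusted p = 0.0476). At 72 h eater read 10.88, 10.86, 10.70 and 10.61 in control cells and 10.96, 10.64, 11.16 and 11.24 with MMS, a change of 0.23 ± 0.31 (adjusted p = 0.6).

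The MMS effect on eater fell by 1.77 ± 0.43 from 8 to 24 h (adjusted p = 0.00739) and rose by 1.40 ± 0.43 from 24 to 72 h (adjusted p = 0.0258). The later difference was not called without control 24 h replicate 1 (adjusted p = 0.0567) or 2 (0.0535), MMS 24 h replicate 3 (0.0586) or 4 (0.053), or MMS 72 h replicate 3 (0.0501) or 4 (0.0572). Over the 8 genes, the effect at 24 h exceeded that at 8 h for 0 genes, against 4.96% of all genes, and lay below it for eater, against 3.02%. Of the 8, 0 had a higher effect at an unadjusted p under 0.05. The effect at 72 h exceeded that at 24 h for eater and drpr, against 9.13% of all genes, and lay below it for Sr-CI and NimC1, against 4.53%.

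Hemolectin (Hml), a secreted clotting protein and a standard marker of plasmatocytes, followed the pattern of eater at 24 h. Control arrays read 12.15, 11.90, 11.45 and 11.30 and MMS arrays 10.91, 10.80, 10.54 and 10.56. Every MMS array was below every control array and the change was −1.0 ± 0.31 (1.99-fold lower, adjusted p = 0.0185). The fit did not pair arrays by number. Without control replicate 1 the adjusted p was 0.0802, without control replicate 2 it was 0.0554, without MMS replicate 3 it was 0.0516 and without MMS replicate 4 it was 0.0511. At 72 h Hml read 12.13, 12.09, 11.73 and 12.10 in control cells and 11.87, 12.20, 11.92 and 12.13 with MMS, which overlapped throughout (0.02 ± 0.31, adjusted p = 0.968). The difference between the effects at 24 and 72 h was 1.02 ± 0.44 and was not called (adjusted p = 0.136). It was called when only these 4 groups entered the fit (adjusted p = 0.00359).

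Serpent (srp), the GATA factor of the blood lineage, gave −0.43 ± 0.26 at 24 h (adjusted p = 0.285). Its control arrays read 10.53, 10.23, 9.62 and 10.04 and its MMS arrays 9.91, 9.84, 9.48 and 9.47, so that each MMS array lay below the control array of the same replicate number. At 24 h the arrays of equal number deviated together (r of 0.356 to 0.529 over genes), though unequal numbers reached 0.5 and the equal number was the best match for 2 of 4. With the number as a block among these 8 arrays the same change had an adjusted p of 0.000324, a call that rests on this pairing. That fit also called Hml (adjusted p = 1.07e-09), eater (1.32e-11), NimB4 (0.000113) and crq (7.49e-07) at 24 h, in the directions of the main fit. Sr-CI (0.0683), NimC1 (0.118) and drpr (0.13) were not called. At 72 h srp read 11.29, 11.28, 11.00 and 10.83 in control cells and 11.11, 11.12, 11.10 and 11.39 with MMS (0.08 ± 0.26, adjusted p = 0.843).

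Beside these 72 h results, the 3′ to 5′ difference of the control probe sets was 0.69 to 0.72 on the MMS arrays of 72 h and 0.54 to 0.63 on the control arrays of 72 h, without overlap. At 24 h it was 0.54 to 0.61 with MMS and 0.50 to 0.58 in control cells. Its part in the changes of the 8 genes was not tested.

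Several of these genes also changed with time in control cells, and at 72 h those called were all higher. From 0 to 72 h in control cells 5 of the 8 genes were higher, against 16.7% of all genes, and 0 were lower, against 19.8%. Of the 8, 0 were lower at an unadjusted p under 0.05 there. The median change of the 8 genes was 0.67, beside −0.01 for all genes. The 0 h and 72 h arrays did not overlap for 3 of 8 genes, against 30.6% of all genes.

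NimC1 rose from 5.29, 5.12, 5.43 and 5.29 at 0 h to 8.33, 8.5, 8.48 and 7.77 at 72 h. This was a change of 2.99 ± 0.15 (adjusted p = 3.49e-17), from a level not shown to be above background. Of all genes, 98.3% had a smaller span between their lowest and highest group mean. Sr-CI rose from 4.12, 3.78, 3.82 and 3.75 by 2.16 ± 0.16 (adjusted p = 5.69e-13), from a level below every array median. The rise of srp from 9.51, 10.31, 10.81 and 9.43 was 1.09 ± 0.26 (2.12-fold, adjusted p = 0.000792), and here the highest 0 h array lay just under the lowest 72 h array.

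The same comparison gave 0.74 ± 0.16 for crq (1.67-fold, adjusted p = 0.00029), from 7.19, 6.57, 7.57 and 6.91 at 0 h, and 0.61 ± 0.17 for drpr (1.53-fold, adjusted p = 0.00505), from 8.72, 8.69, 9.12 and 8.32. In both the arrays of 0 and 72 h overlapped. The changes were 0.51 ± 0.31 for eater (adjusted p = 0.225), 0.47 ± 0.31 for Hml (adjusted p = 0.279) and 0.05 ± 0.15 for NimB4 (adjusted p = 0.85), and none of these was called.

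Sr-CI and NimC1 were therefore high in control cells at 72 h and lower with MMS of that age. NimC1 with MMS at 72 h (6.63 to 7.27) still stood clear of every earlier group, the highest of which reached 6.35. Sr-CI with MMS at 72 h (4.18 to 4.54) overlapped both groups of 8 h. For crq and drpr, the rise in control cells and the change with MMS had the same direction, and their highest group was MMS at 72 h, clear of the control group of that age.

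Fewer of the 8 genes were called in control cells at 1 and 24 h. At 1 h 0 of the 8 genes were higher, against 0.2% of all genes, and 0 lower, against 0.0668%. NimB4 alone had an unadjusted p under 0.05 at 1 h (−0.32 ± 0.15, adjusted p = 0.643). At 24 h NimC1 was higher by 0.69 ± 0.15 (adjusted p = 0.00134), against 4.82% of all genes, and 0 were lower, against 10.8%. Of the 8, 0 were lower at an unadjusted p under 0.05 at 24 h, and the closest was drpr with −0.35 ± 0.17 (adjusted p = 0.193).

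At 8 h, on the arrays that stood apart in their control probe sets, Sr-CI was higher than at 0 h (0.63 ± 0.16, adjusted p = 0.00287), against 16.8% of all genes. Eater and NimB4 were lower, against 16.4%. Eater fell from 10.06, 10.44, 10.78 and 9.74 at 0 h to 6.73, 8.04, 9.02 and 8.33, a change of −2.22 ± 0.31 (4.67-fold lower, adjusted p = 5.66e-07). NimB4 fell from 5.07, 4.87, 4.77 and 4.92 to 4.32, 4.35, 4.00 and 3.82, a change of −0.78 ± 0.15 (adjusted p = 5.84e-05). No array of 0 h overlapped the 8 h arrays for these 3 genes. MMS-treated cells of 8 h were low for both as well, with eater at 7.87 to 8.98 and NimB4 at 3.99 to 4.19.

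The order of the 9 group means also set the genes apart. Control cells at 72 h came first for Sr-CI, NimC1 and NimB4, and MMS cells at 72 h came first for eater, crq, drpr and srp. The leading group stood clear of the next for Sr-CI, NimC1, crq and drpr, and overlapped it for eater, srp and NimB4. Hml alone was led by the 1 h MMS group, whose arrays overlapped those of the next group, and MMS cells at 24 h came last for Hml, drpr and srp. In those 3 genes the last group overlapped its neighbour for drpr and srp, and for Hml the control cells of 8 h reached down to 10.53, just under the lowest array of the last group (10.54).

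The other genes of phagocytosis were taken from lists and read only as counts beside these changes. Of 22 other Nimrod, scavenger, integrin and thioester-protein genes measured, 1 was lower with MMS at 8 h and 0 higher, 2 were higher and 5 lower at 24 h, and 1 was higher and 7 lower at 72 h. Over all genes 8.85% were higher and 11.5% lower at 8 h, 10.2% and 10% at 24 h, and 17% and 12.5% at 72 h, and the counts of each list that follows stand beside these same shares. The median change of the list at 72 h was −0.16, beside −0.05 for all genes. NimB5, a secreted Nimrod protein, was lower at each of these times, with changes of −0.63 ± 0.16 (adjusted p = 0.00425), −1.47 ± 0.16 (adjusted p = 8.14e-09) and −1.92 ± 0.16 (adjusted p = 1.79e-11). NimB1, another member of the family, was lower at 72 h (−1.46 ± 0.16, adjusted p = 7.08e-09). The integrin alpha chain gene scb, whose protein takes part in uptake of bacteria and apoptotic cells, was the one higher at 72 h. Its change was 2.26 ± 0.16 (adjusted p = 3.13e-13), after 1.26 ± 0.16 at 24 h (adjusted p = 1.46e-07). Over all arrays scb ranged from 4.50 to 7.67, and its lower levels are not shown to be above background. Tep4, a thioester-containing protein of the blood, was higher at 24 h by 1.20 ± 0.16 (adjusted p = 2.99e-07).

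Of 21 measured genes for engulfment signalling and phagosome maturation, 1 was higher and 7 lower at 8 h, 1 higher and 2 lower at 24 h, and 4 higher and 3 lower at 72 h, with list medians of −0.07, −0.12 and 0.07. The counts at 24 h were no higher than the shares over all genes, and those at 72 h were near them. At 8 h the smallest adjusted p-values belonged to dor, a tethering subunit for fusion with lysosomes (−0.54 ± 0.10, adjusted p = 0.00022), Vps16B, a trafficking gene of phagosome maturation (−0.70 ± 0.14, adjusted p = 0.000333), and Arpc1, a subunit of the Arp2/3 actin complex (−0.38 ± 0.08, adjusted p = 0.00047). At 24 h ced-6, the adaptor that binds Draper, was lower (−0.57 ± 0.13, adjusted p = 0.000999), Rab14, a GTPase of phagosome maturation, was lower (−0.24 ± 0.09, adjusted p = 0.0438), and pall, an F-box gene for clearance of apoptotic cells, was higher (0.48 ± 0.11, adjusted p = 0.00161). At 72 h car, a Vps33 protein that acts with dor, was higher by 1.37 ± 0.13 (adjusted p = 5.4e-10) and Vps16B by 0.57 ± 0.14 (adjusted p = 0.00171), while Arpc1 was lower (−0.30 ± 0.08, adjusted p = 0.00331). The change of Vps16B had opposite signs at 8 and 72 h.

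Among 17 regulators of the blood lineage measured, 1 was higher and 0 lower at 8 h, 1 higher and 2 lower at 24 h, and 5 higher and 1 lower at 72 h. At 8 h and in the higher direction at 24 h these counts were below the shares over all genes. The NF-κB factor dl was higher at 8 h (0.63 ± 0.12, adjusted p = 0.000293). At 24 h the receptor Pvr, which keeps hemocytes alive and migrating, was lower (−1.02 ± 0.16, adjusted p = 8.05e-06), the NF-κB factor Rel was lower (−0.62 ± 0.12, adjusted p = 9.51e-05) and Pvf2, a Pvr ligand, was higher (0.27 ± 0.09, adjusted p = 0.0196). At 72 h the ligands Pvf3 (0.78 ± 0.11, adjusted p = 8.87e-07) and Pvf1 (0.61 ± 0.12, adjusted p = 0.000173) were higher and Rel was again lower (−0.79 ± 0.12, adjusted p = 1.41e-06). Over all arrays Pvf3 ranged from 4.00 to 5.61 and Pvf1 from 4.43 to 5.65, levels not shown to be above background.

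Of 14 plasmatocyte markers besides Hml, 2 were higher and 2 lower at 8 h, 3 higher and 7 lower at 24 h, and 3 higher and 3 lower at 72 h. The list median was −0.63 at 24 h, beside −0.02 for all genes, and the mean level of the list was 10.30 to 10.52 on the MMS arrays of 24 h against 10.67 to 11.08 on the control arrays. The smallest adjusted p-values at 24 h were those of the ferritin genes Fer1HCH (0.65 ± 0.06, adjusted p = 2.7e-10) and Fer2LCH (0.62 ± 0.09, adjusted p = 8e-07), which were higher, and of fon, a clotting protein, which was lower at 8 h (−1.12 ± 0.10, adjusted p = 2.28e-10) and at 24 h (−0.94 ± 0.10, adjusted p = 2.43e-09). At 8 h SPARC, a collagen-binding matrix protein, was lower (−0.30 ± 0.08, adjusted p = 0.00611) and Fer2LCH higher (0.30 ± 0.09, adjusted p = 0.0102). At 72 h He was lower (−2.0 ± 0.17, 4.00-fold, adjusted p = 2.75e-11), Pxn was higher by 1.42 ± 0.18 (adjusted p = 1.13e-07) and SPARC was higher by 0.59 ± 0.08 (adjusted p = 4.63e-07). In control cells from 0 to 72 h, He rose by 1.17 ± 0.17 (adjusted p = 8.94e-07). Pxn fell there (−1.86 ± 0.18, adjusted p = 1.98e-10), as did SPARC (−0.32 ± 0.08, adjusted p = 0.00152). Both comparisons share the 72 h control arrays. At 72 h the called plasmatocyte markers went in both directions, as did the called receptors.

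Some markers of other cells were also called, at 72 h beside 17% of all genes higher and 12.5% lower. Of 8 neuron genes measured, 3 were higher with MMS and 0 lower, led by elav, an RNA-binding protein of neurons (1.82 ± 0.14, adjusted p = 3.98e-12), with brp, an active-zone protein (0.73 ± 0.13, adjusted p = 2.17e-05), and ChAT, the enzyme for acetylcholine (0.41 ± 0.10, adjusted p = 0.00194). The mean level of that list was 4.98 to 5.06 with MMS and 4.61 to 4.73 in control cells. Its median change was 0.09, beside −0.05 for all genes, and 5 of the 8 were not called. Earlier, brp was higher at 8 h (0.89 ± 0.13, adjusted p = 2.73e-06) and 24 h (0.50 ± 0.13, adjusted p = 0.00312), as was elav (0.40 ± 0.14, adjusted p = 0.0475, and 0.75 ± 0.14, adjusted p = 0.000142). On every array elav (4.94 to 7.77), brp (5.44 to 7.36) and Rdl (4.72 to 5.33) lay above the array medians, and Appl, VGlut and ChAT (3.27 to 4.34) lay below them.

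Of 6 lamellocyte genes, 3 were lower and 0 higher at 72 h, namely mys, an integrin beta chain (−0.71 ± 0.14, adjusted p = 0.000182), PPO3, a phenoloxidase (−0.62 ± 0.14, adjusted p = 0.00103), and the kinase gene msn (−0.74 ± 0.23, adjusted p = 0.0139), with a list mean of 7.24 to 7.45 with MMS and 7.59 to 7.80 in control cells. The filamin gene cher was lower at 8 h (−0.63 ± 0.15, adjusted p = 0.0024) and 24 h (−1.08 ± 0.15, adjusted p = 9.87e-07), and PPO3 was higher at 24 h (0.45 ± 0.14, adjusted p = 0.0196). Over all arrays msn read 8.81 to 11.34, mys 9.90 to 11.08, cher 7.98 to 9.67 and PPO3 5.85 to 7.46, while the lamellocyte markers atilla and ItgaPS4 read 4.19 to 5.08 and 3.13 to 3.71. Of 6 muscle genes, 1 was called at each of 8, 24 and 72 h. Prm was lower at 72 h (−0.82 ± 0.12, adjusted p = 1.16e-06), bt higher at 8 h (0.60 ± 0.10, adjusted p = 2.21e-05) and up higher at 24 h (0.31 ± 0.10, adjusted p = 0.0277). Over all arrays bt read 3.27 to 4.26 and up 3.22 to 3.96, below every array median. At 72 h 2 of 7 fat body and gut genes and 1 of 3 crystal cell genes were called. The fat body gene Yp2 (−0.33 ± 0.09, adjusted p = 0.00655), the gut gene alphaTry (−0.28 ± 0.08, adjusted p = 0.0117) and the crystal cell gene PPO1 (−0.30 ± 0.10, adjusted p = 0.0256) were lower. The part of these markers in the changes of the 8 genes was not tested.

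NimB4 and NimC1 lie in the Nimrod cluster on chromosome arm 2L, with NimB5 and He between them in RefSeq's gene table (Release 6 plus ISO1 MT), read for neighbour order only. These neighbours were looked at after their values were known. Between the genes Vajk3 and rk, 8 Nimrod genes and He were measured. Of these 9, 7 were lower with MMS at 72 h, against 12.5% of all genes, and 0 were higher, against 17%. NimC3 and NimC4 lay outside this stretch and were not counted. They ranged from 3.39 to 3.98 and from 4.83 to 5.47 over all arrays. Along the arm the changes were −0.41 ± 0.12 for NimA (adjusted p = 0.00868), −1.46 ± 0.16 for NimB1, −0.26 ± 0.10 for NimB2 (adjusted p = 0.043), −0.23 ± 0.11 for NimB3 (adjusted p = 0.121), −0.50 ± 0.15 for NimB4, −1.92 ± 0.16 for NimB5, −2.0 ± 0.17 for He and −1.31 ± 0.15 for NimC1. Beyond NimC1 came Cyp28a5, a cytochrome P450 gene with −1.60 ± 0.12 (adjusted p = 2.66e-12), and NimC2 with −0.09 ± 0.10 (adjusted p = 0.504). The genes at the ends of the stretch, Vajk3 (−0.07 ± 0.11, adjusted p = 0.669) and rk (0.00 ± 0.08, adjusted p = 0.977), were not called.

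Of the 12 genes from Vajk3 to rk, the changes below −1 were those of NimB1 and of the run from NimB5 to Cyp28a5. NimB5 read 8.90 to 9.22 at 72 h in control cells and 6.70 to 7.49 with MMS, and He read 11.56 to 12.02 and 9.32 to 10.11, neither with overlap. The run from NimB5 to Cyp28a5 also held the genes of the 12 called higher in control cells from 0 to 72 h, with 0.92 ± 0.16 for NimB5 (adjusted p = 1.57e-05), 1.17 ± 0.17 for He (adjusted p = 8.94e-07), 2.99 ± 0.15 for NimC1 and 4.45 ± 0.12 for Cyp28a5 (adjusted p = 7.16e-24). NimB1 changed by 0.31 ± 0.16 there (adjusted p = 0.141) and NimB4 by 0.05 ± 0.15. NimB2, NimB3 and NimC2 ranged from 3.6 to 4.89 over all arrays, NimA from 3.83 to 4.91 and NimB4 from 3.82 to 5.18, near or below the array medians. Both comparisons share the control arrays of 72 h.

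**Figure D3:**
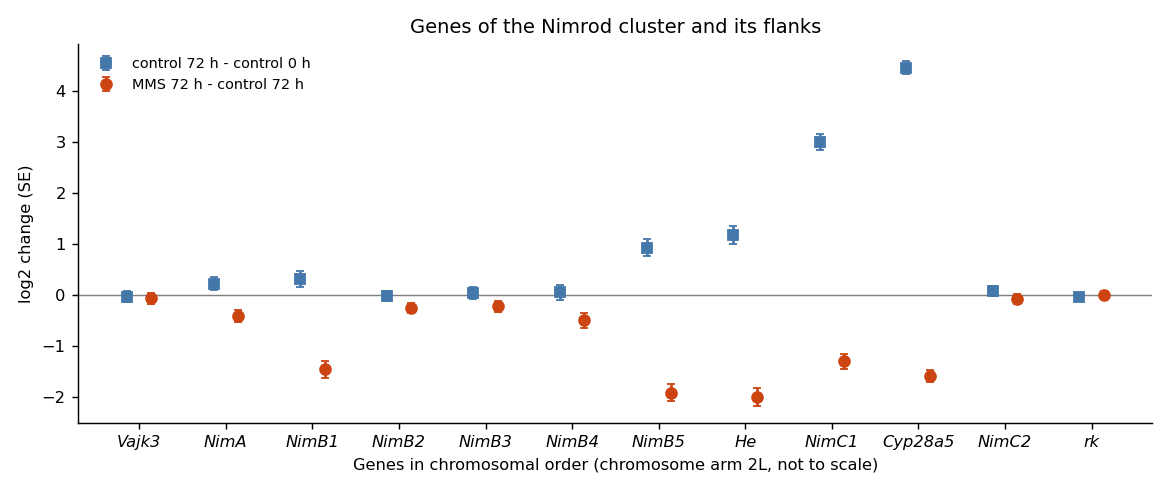
Log2 change with bars of 1 standard error for the genes from Vajk3 to rk, in and beside the Nimrod cluster, in their order on chromosome arm 2L (not to scale). Squares give control cells at 72 h minus control cells at 0 h and circles give MMS minus control at 72 h. NimB5, He, NimC1 and Cyp28a5 lie above 0 in the first and below 0 in the second, and Vajk3, NimC2 and rk lie near 0 in both.

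The genes most alike to each of the 8 in their course over the 9 group means were sought among 3723 genes whose group means spanned at least 1. The likeness is Pearson's r over 9 points that share arrays, given as a description. For Sr-CI these were CG6569 (0.98), CG42699 (0.95) and Tfb1 (0.94), and for NimC1 they were CG10163, spir and Pgm1 (each 0.98). For eater they were Mnn1 (0.98), CG34126 (0.97) and Idgf2 (0.97). For crq they were cactin (0.99), TMEM216 (0.98) and pirk (0.98). For drpr they were mio (0.99), CG2162 (0.98) and ush (0.97), the last of which encodes a cofactor of Serpent. For srp they were Iml1 (0.99), CG9932 (0.97) and Set2 (0.97), and for NimB4 they were CG9164 (0.95), CG31431 (0.94) and CG15111 (0.93). Hml had the least close matches, Gprk2 (0.88), S (0.87) and C3G (0.87). Among the 8 genes themselves, drpr and srp (0.93) and Sr-CI and NimC1 (0.86) followed each other most closely over the group means.

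Within groups, the arrays varied together for Hml, eater, drpr and srp. The deviations of the 36 arrays from their group means had r from 0.50 to 0.86 between these 4 genes, with 0.86 for Hml and srp and 0.75 for drpr and srp. NimB4 had negative values with all 4, of −0.41 against Hml, −0.43 against srp, −0.28 against eater and −0.15 against drpr. In control cells at 0 h, for example, replicates 2 and 3 were the high arrays for Hml (12.17 and 12.39, against 10.92 and 10.70) and for srp (10.31 and 10.81, against 9.51 and 9.43).

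This variation was shared widely. Of the 14 other plasmatocyte markers, 8 had r over 0.7 with the deviations of Hml, led by the laminin chains LanA (0.97), LanB1 (0.94) and LanB2 (0.90), while the other 6 ran from −0.64 for Fer1HCH to 0.46 for Fer2LCH, with SPARC (−0.45), glob1 (−0.43), He (−0.37) and fon (−0.18) between. Of all genes, 7.52% had r over 0.7 and 7.14% had r under −0.7. On the 28 arrays outside 8 h, the deviation of the 3′ to 5′ difference had r of 0.62 with srp, 0.61 with eater, 0.53 with drpr, 0.53 with crq, 0.42 with Hml, 0.13 with NimC1, −0.01 with Sr-CI and −0.44 with NimB4. Over all 36 arrays the values, in the same order of genes, were 0.37, −0.05, 0.40, 0.29, 0.11, −0.13, −0.17 and −0.36. These points share arrays and normalization, and the part of RNA quality in the shared variation was not tested.

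**Figure D4:**
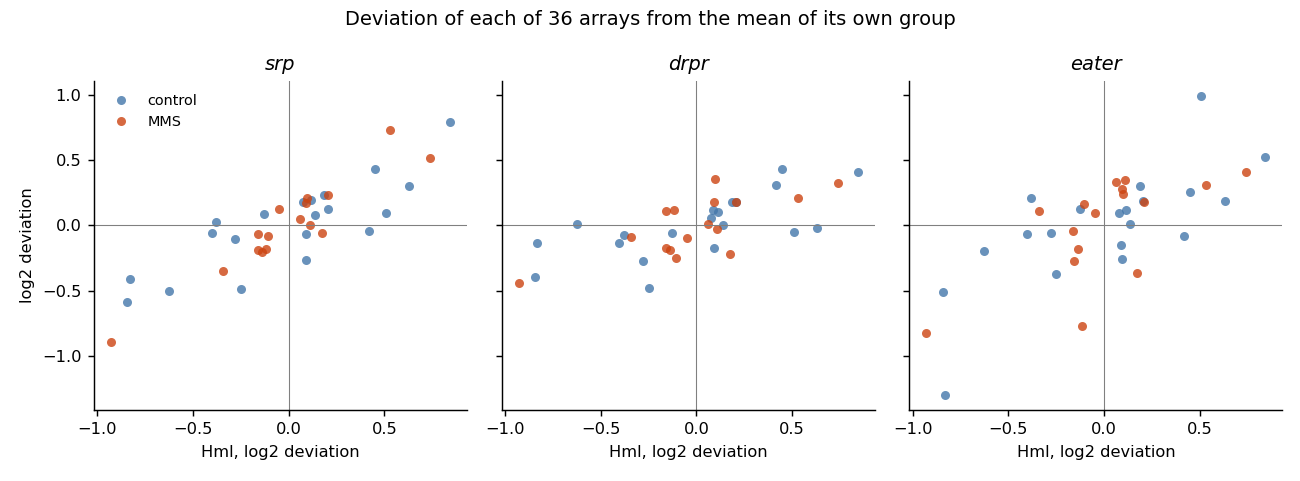
Log2 deviation of each of the 36 arrays from its own group mean for srp, drpr and eater (vertical) against Hml (horizontal), with control arrays in blue and MMS arrays in orange. Points lie along a rising band in each panel, with r of 0.86 for srp, 0.69 for drpr and 0.71 for eater.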

How the data were processed

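Kc167 cells were profiled on 36 Affymetrix arrays, with groups, times and replicate numbers as the labels give them. The table the authors deposited holds log2 values made with RMA (version not given in the sources used here), and 0 columns were without a sample. The table held 18952 probe sets with values from 2.67 to 14.74. Through the platform annotation 13647 probe sets named 1 gene and 402 several, another 4720 had no gene listed, and the remaining 183 were array controls. Looking symbols up in RefSeq's table (Release 6 plus ISO1 MT) changed 0 of them and left 103 probe sets unmatched. Where a gene had several probe sets (1094 genes), the one of highest mean was kept, for 11982 genes in all.

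A mean per group was fitted over all 36 arrays without covariates in limma 3.58.1 (R 4.3.3; 27 residual and 5.37 prior degrees of freedom), with Benjamini-Hochberg adjustment over all genes and calls at an adjusted p under 0.05. Differences between MMS effects were fitted as interaction terms. The fit was tested on simulated data with independent noise for each gene. That test does not cover the variation that genes share within groups here. The permutation analysis named in the methods was run by the array service and is not used here. The design text speaks of separately grown cultures, but no label ties a number to a culture, so the p-values cover only the variation among these arrays of 1 cell line. The number of arrays limits the precision.

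Pairing was checked by correlating the deviations of equally numbered control and MMS arrays from their group means. At 24 h every pair lay over 0.1 (0.356 to 0.529), with unequal numbers at −0.489 to 0.5 and the equal number the best match for 2 of 4. The values were −0.436 to 0.203 at 1 h, −0.031 to 0.462 at 8 h and −0.294 to −0.015 at 72 h. At 8 h the equal number was also the best match for 2 of 4. The numbers were taken as pairs at 24 h only, and the main fit pairs no arrays.

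The 8 genes and the lists of other genes were chosen with earlier results of these data known. Genes missing from the gene table were replaced or removed before the lists' values were read. The text names all 8 genes, up to 3 called genes of each list at each MMS comparison by smallest adjusted p, and the 3 genes most alike to each of the 8 over the group means. Genes named outside this rule (those of the Nimrod cluster, and markers given for their level or their within-group r) were chosen after their values were seen. Alternatives were the mean over probe sets, arrays centred on their medians, a further quantile normalization, genes of mean under 5 left out, only the compared groups, the 8 h arrays left out, the replicate block, array quality weights and each array left out in turn. The replicate block among the compared groups alone was added after seeing the data.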

Additional observations from a re-analysis of the deposited data

Results flagged for a closer look

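In 6 of 72 groups of 4 arrays (9 groups for each of 8 genes), 1 array stood farther from its nearest neighbour than Dixon's limit allows, where chance gives about 1 in 20, or 3.6. These were replicate 4 of MMS at 72 h for Sr-CI (4.54) and for srp (11.39), replicate 1 of MMS at 8 h for NimC1 (5.43), replicate 1 of control at 24 h for NimC1 (6.09), and replicate 3 of control at 72 h for drpr (9.05) and for Hml (11.73).

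The effect of MMS differed between times by a test of the difference for 4 of the 8 genes. From 8 to 24 h the effect on eater differed by −1.77 (log2). From 24 to 72 h it differed by −1.54 for Sr-CI, −1.48 for NimC1, 1.40 for eater and 0.80 for drpr.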

How the results depend on the processing

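Over all alternatives other than leaving out an array, 618 of 628 changes of single genes kept their side of the threshold, 8 became called and 2 were lost. With 1 array left out, 741 of 768 did so, 6 became called and 21 were lost. No called change turned sign. Among the changes that stayed uncalled, 75 turned sign, and these are within the counts that kept their side. The replicate block over all 36 arrays changed no call among the 8 genes (crq at 8 h, 0.45, adjusted p = 0.0459). Among the compared groups alone it called 2 genes higher at 8 h (eater joined, adjusted p = 0.0368) and called srp lower at 24 h. It called 3975 of all genes at 24 h, against 2421 in the main fit over all 36 arrays (both directions). These fits differ in the arrays used as well as in the block. At 8 h and 72 h the numbers were not taken as pairs, and no label settles whether they are.

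Of the 8 genes, the count higher with MMS at 8 h was 0 with centred arrays and 0 to 2 with 1 array left out. Leaving out genes of mean under 5 removed Sr-CI and NimB4, and the counts lower with MMS at 72 h, and lower at 72 against 24 h, became 1 and 1, while control cells at 8 h had 0 higher and 1 lower. The count with a lower effect at 24 than at 8 h was 2 with those genes left out, 2 with only the compared groups, 3 with array weights and 1 to 2 with 1 array left out, as Hml (adjusted p = 0.038, 0.0055 and 0.023) and, with weights, NimB4 (0.0267) were called. Without control 8 h replicate 3 or control 24 h replicate 4 the adjusted p of Hml there was 0.0283 or 0.0454. The count with a higher effect at 72 than at 24 h was 1 without the 8 h arrays and 0 to 2 with 1 array left out. In control cells at 8 h, 2 genes were higher with array weights, and 1 to 2 with 1 array left out (NimC1 without control 8 h replicate 1, adjusted p = 0.0243, srp without control 0 h replicate 3, 0.0452).

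Over all genes, the calls for control at 1 h were 2 with only the compared groups and 54 with weights, against 32, and as few as 13 without control 0 h replicate 2. Control at 24 h gave 1204 with only the compared groups against 1877, and the effect at 24 against 8 h gave 1697 with weights against 956. The causes of these differences were not tested.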
